A study of Mus musculus with 12 samples.

Results

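Type I interferon-stimulated genes, a set of 45 genes chosen by name from the 28689 genes of an RNA-seq table, were described in mouse lung endothelial cells (MLECs) of mice with floxed alleles of the transcription factors Sp1 and Sp3, with (dKO) and without (CTR) a Cre recombinase in the endothelium. The names were put together with earlier results of these same libraries in view, so the difference between the genotypes is part of what chose the set. The spread among the dKO libraries was named with the set as well. The size of the difference, the calls of the fit over all genes and the spread and order of the dKO libraries are therefore given as a description. Nothing rests on the p-values of these genes. The experiment held 12 libraries, 6 per genotype (CTR and dKO), sequenced as paired-end reads and deposited as FPKM (fragments scaled to transcript length and library total). It asked which transcripts differ when both factors are deleted in the endothelium.

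The dKO mice carried VE-CAD-CreERT2, a Cre recombinase that tamoxifen activates and the VE-Cadherin promoter drives in endothelial cells, together with the floxed alleles Sp1 fl/fl and Sp3 fl/fl. The CTR mice were littermates without the Cre but with the same floxed alleles, and they are labelled WT. Both groups received tamoxifen, named as tamoxifen-infection in the labels, and by the study's account the mice were male young adults. The MLECs were selected on CD31, grown to confluency, selected again on ICAM2 and used at passages 1 to 3, and the sources used here do not say how many mice stood behind a library, so p-values measure the spread between libraries only.

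Library totals, recovered from the FPKM values, lay between 15523054 and 17938286 fragments. The columns of the dKO group are named after tamoxifen and were matched through the labels. Sp1 was at 19.4 to 23.7 FPKM in the CTR and 8.42 to 12.1 FPKM in the dKO libraries, a log2 fold change of -0.95 ± 0.09 (SE, limma adjusted p = 5.68e-06), whereas Sp3 overlapped between the groups at 24.2 to 31.1 and 22.5 to 26.9 FPKM (log2 fold change -0.14 ± 0.07, adjusted p = 0.0902, -0.18 with adjusted p = 0.0326 without CTR replicate 6). These values are RNA over the whole gene. By immunofluorescence, a measure of protein, the study reported less Sp1 and Sp3 in the aortic endothelium of dKO mice. The defining endothelial markers were detected in each library, at sums over 10 genes of 169 to 251 FPKM in CTR and 308 to 425 FPKM in dKO. So were those of macrophages, with summed FPKM over 10 macrophage genes of 721 to 1265 in the CTR and 2388 to 5299 in the dKO libraries. Markers of other cells were present too. Fibroblast markers summed to 2122 to 2689 FPKM in CTR and 820 to 1645 FPKM in dKO. Monocyte markers summed to 954 to 1615 and 546 to 1807 FPKM, and smooth muscle markers to 469 to 1429 and 414 to 854 FPKM. In bulk RNA, fewer cells of a type and less RNA per cell cannot be told apart. Mmrn1, a gene deleted in a known C57BL/6 substrain, had 8.46 to 19.3 FPKM in the CTR libraries and 0 in each of the 6 dKO libraries. Ifi202b, an interferon-inducible gene whose level is known to differ between strains, was at 0.0675 to 0.271 FPKM in CTR and 14.1 to 68.4 FPKM in dKO, whereas Nnt, mutated in C57BL/6J, overlapped at 3.26 to 4.16 and 3.29 to 4.69 FPKM. The strain background of the groups and the deletion of Sp1 and Sp3 therefore cannot be told apart for any gene below.

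Type I interferons, IFN-β and the IFN-α family, are cytokines that cells secrete after sensing viral or misplaced nucleic acids. They bind a receptor of IFNAR1 and IFNAR2, whose kinases JAK1 and TYK2 phosphorylate STAT factors, STAT2 among them. With IRF9 these form the complex ISGF3, which binds the interferon-stimulated response element (ISRE) in the promoters of its target genes. The products of those genes bind or cut foreign RNA, trap virus particles at membranes or feed back on the pathway itself.

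The promoters of 36 of the 45 genes were in the RefSeq table of mouse promoters (build GRCm38.p6), which holds 250 bases before and 50 after each transcription start. Ifi27, Ifi27l2a, Oas2, Mx1, Mx2, Usp18, Rtp4, Parp9 and Parp14 were not in it. The ISRE was searched as GAAANN followed by GAAA, or on the other strand as TTTCNN followed by TTTC, and 15 of the 36 genes (41.7%) held it, against 3.99% of all 27025 genes in the table and 3.73% of those tested for expression. A shorter form, GAAANNGAA or TTCNNTTTC, which each longer match contains, was held by 18 of the 36 genes and by 9.76% of all genes. The 8 stretches below show that element in genes of different roles, 5′ to 3′ on the strand of the gene and with each ISRE match in capitals.
Isg15: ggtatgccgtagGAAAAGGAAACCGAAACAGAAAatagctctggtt
Ifit1: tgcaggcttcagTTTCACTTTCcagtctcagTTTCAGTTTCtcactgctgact
Ifit3: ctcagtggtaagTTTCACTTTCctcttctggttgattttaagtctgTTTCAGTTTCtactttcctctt
Oas3: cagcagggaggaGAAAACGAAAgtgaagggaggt
Bst2: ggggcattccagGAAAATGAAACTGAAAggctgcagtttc
Stat2: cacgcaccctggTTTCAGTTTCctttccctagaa
Rsad2: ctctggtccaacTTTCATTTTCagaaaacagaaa
Trim30a: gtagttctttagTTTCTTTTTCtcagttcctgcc

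By exact match these stretches lie upstream of the annotated genes on GRCm39, the build of the deposited values. Isg15 is at chr4:156285320-156285365 on the minus strand, where 3 matches share letters with each other, and Bst2 is at chr8:71990219-71990258 on the minus strand with 2 matches that share letters. Ifit1 (chr19:34618173-34618225, plus strand) and Ifit3 (chr19:34560761-34560828, plus strand) each hold 2 separate matches, and the same 68 letters as at Ifit3 stand before Ifit3b. Oas3 (chr5:120915778-120915811, minus strand), Stat2 (chr10:128106133-128106166, plus strand), Rsad2 (chr12:26506550-26506583, minus strand) and Trim30a (chr7:104114415-104114448, minus strand) show 1 match each. A match is a string of letters and not a measured binding site.

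The GC box, GGGCGG or CCGCCC, which Sp1 and Sp3 are known to bind, was held by 11 of the 36 genes (30.6%), against 38.2% of all genes in the table and 70.0% of those tested for expression. Bst2, Ifitm2, Ifitm3 and Stat2 were the 4 genes that held both a GC box and an ISRE. The gamma-activated element TTCNNNGAA, a site known from the type II interferon response, was held by 8 of the 36 genes (22.2%) and 9.55% of all genes.

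**Figure D1:**
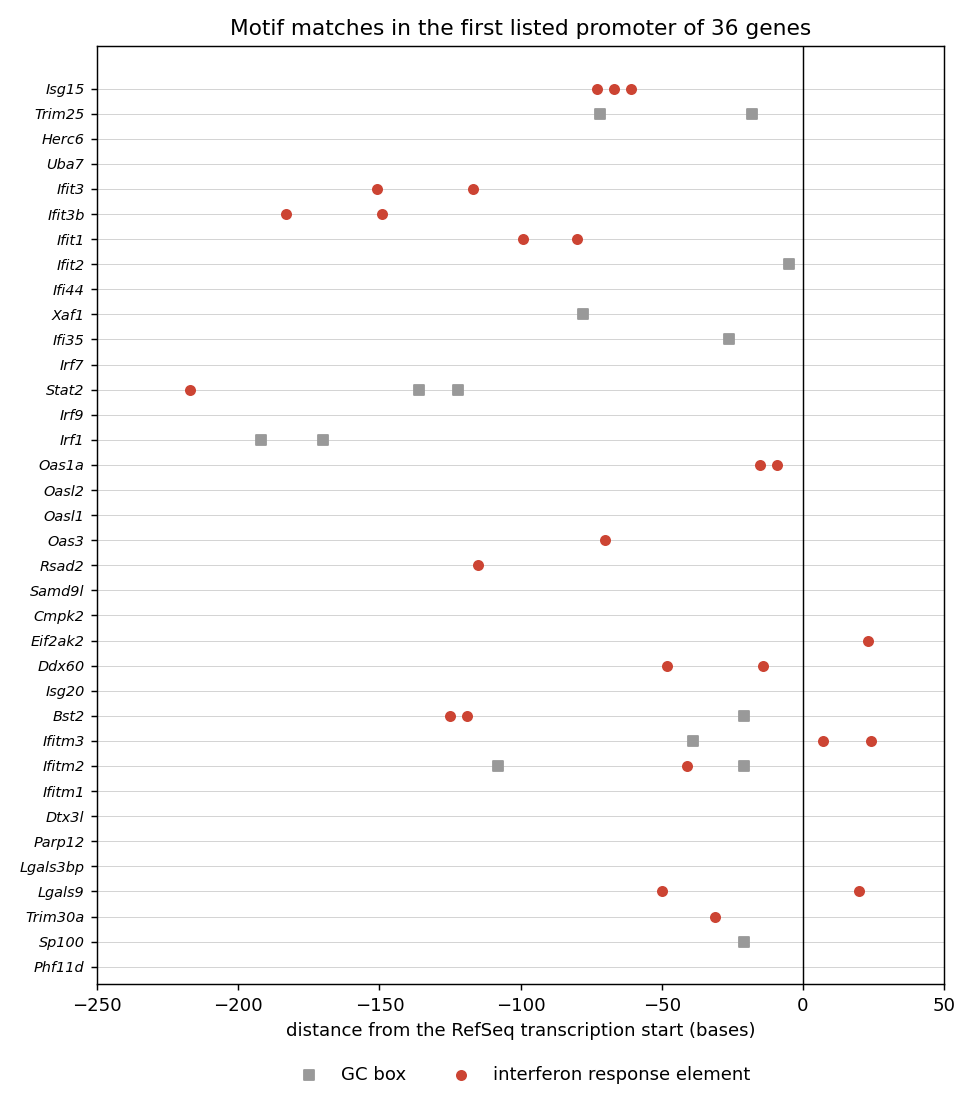
Positions of ISRE matches (circles) and GC boxes (squares) in the first listed RefSeq promoter of each of the 36 genes, as the distance of the match centre from the transcription start in bases. The 15 genes with an ISRE carry their matches mostly before the start line, and 13 of them have a match wholly before it, while Ifitm3 and Eif2ak2 have theirs after it.

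MLECs from dKO mice held more mRNA of most of these genes than MLECs from CTR mice. Of the 45 genes, 40 reached 1 FPKM in at least 6 of the 12 libraries and entered the limma fit, and 37 of these were higher in dKO at an adjusted p under 0.05. Of all 12467 genes tested, 53.1% passed in either direction, 20.4% higher and 32.6% lower, and nothing is read from the count of the set, since the set was chosen with this contrast known. The balance over all genes rested on the scaling, with 2549 higher and 4065 lower as deposited and 3213 higher and 3012 lower after median-of-ratios scaling, where the set still had 37 genes higher. Limma called 0 of the genes of the set lower, and 0 were lower at an unadjusted p under 0.05, with limma-voom or by the exact permutation test. Ifitm1, Ifitm2 and Isg20 were not called, and Oas3, Mx1, Mx2, Herc6 and Ddx60 were below the filter. The groups were fully apart, with each dKO library above each CTR library, for 36 of the 45 genes. Among the 40 tested this held for 33, against 11.3% of all genes tested.

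The median log2 fold change over the 40 genes was 1.33, on the log2(FPKM + 1) scale, against -0.10 over all genes tested. That scale understates the change of genes with low values, and Oas2 and Cmpk2 passed the filter through their dKO libraries alone. Ifi44, Oasl1, Ifit3b, Usp18, Rsad2, Oas1a and Uba7 also had CTR libraries below 1 FPKM, so they too needed dKO libraries to pass it. The ratio of the group means of FPKM, which has no added constant, had a median of 3.15 over all 45 genes and passed 5 in 19 of them and 10 in 5. A log2 fold change over 1.5 together with the adjusted p was reached by 16 of the genes and by 1.43% of all genes tested. Without dKO replicate 3, the highest library for most of the genes, 36 were called higher and the median log2 fold change was 1.16.

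**Figure D2:**
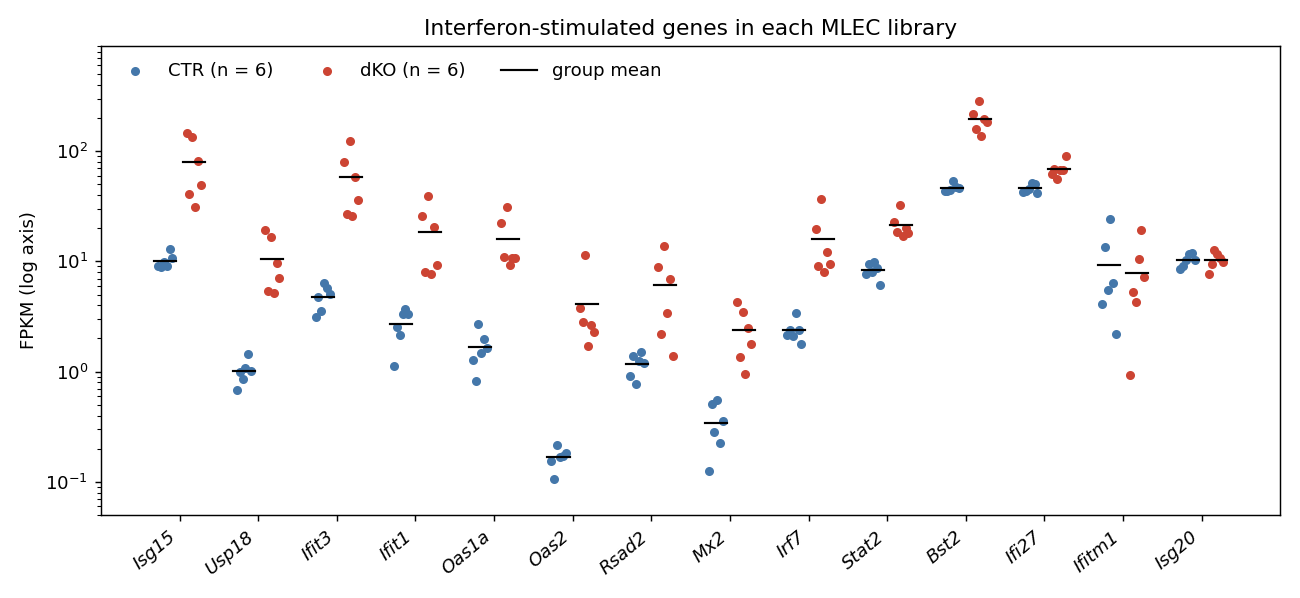
FPKM on a log axis of 14 of the genes in each of the 6 CTR (blue) and 6 dKO (red) libraries, with the group mean as a line. The dKO libraries sit above the CTR libraries in 11 of the 14 genes, whereas Rsad2, Ifitm1 and Isg20 overlap.

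**Figure D3:**
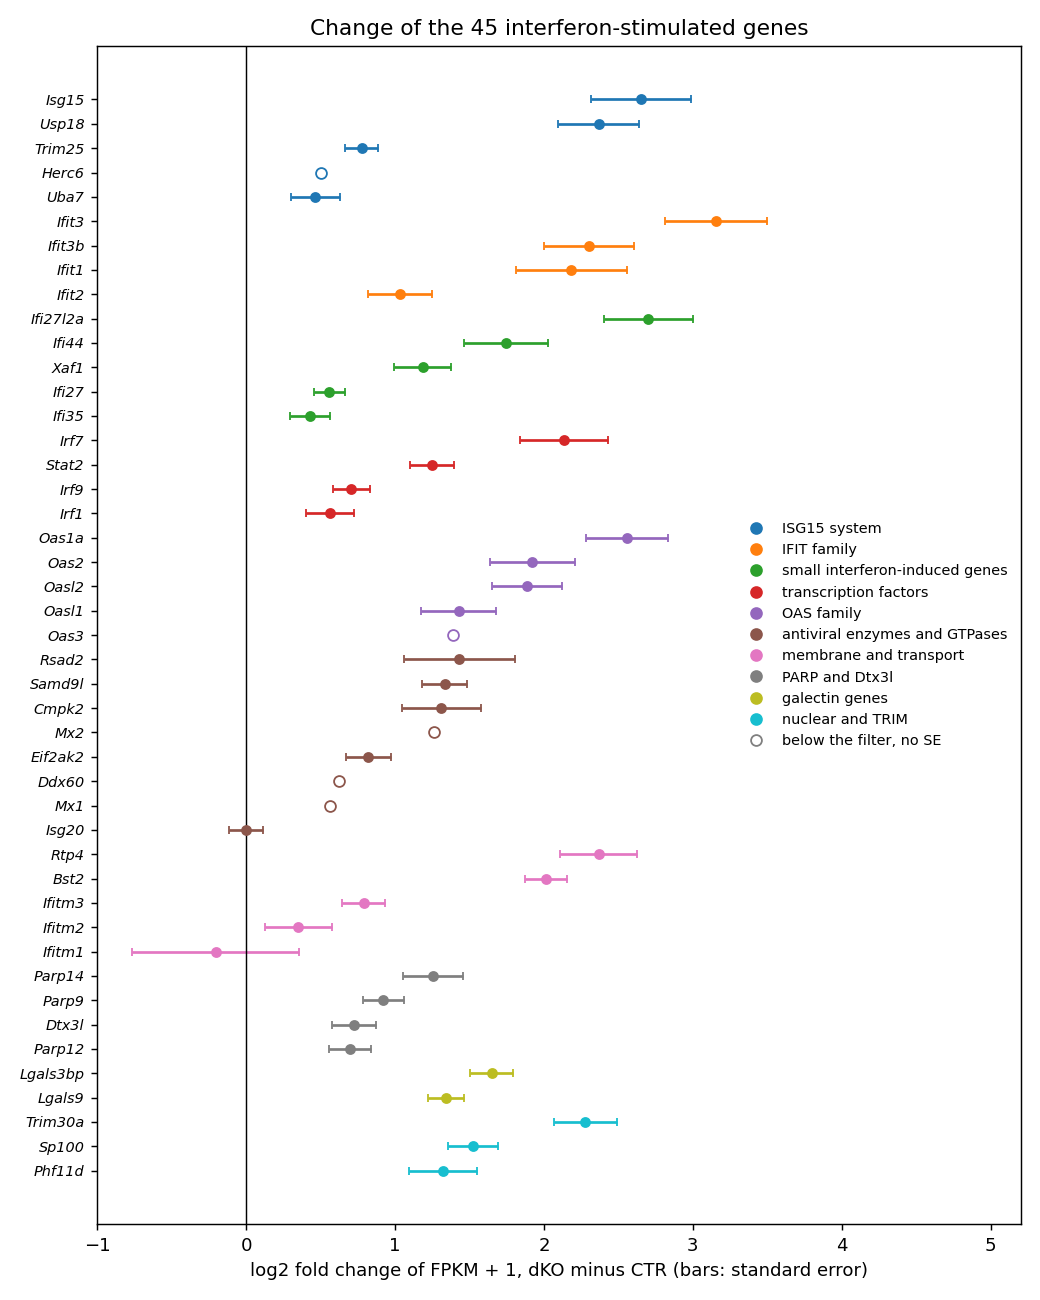
Log2 fold change of FPKM + 1, dKO minus CTR, of the 45 genes grouped by role, with the standard error from limma as bars. Open circles are the 5 genes below the filter, which have no standard error. The values run from -0.21 for Ifitm1 to 3.16 for Ifit3.

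ISG15 is a small protein that is attached to other proteins as ubiquitin is, and 5 of the genes encode it or act with it. Isg15 (chr4:156283883-156285303) was at 8.92 to 13.1 FPKM (median 9.47) in the CTR libraries and at 30.9 to 148 FPKM (median 65.4) in the dKO libraries. The means differed 7.97-fold, with a log2 fold change of 2.65 ± 0.34 (SE). Replicates 1 and 3 were the highest of the dKO libraries, at 148 and 133 FPKM, and replicate 4 was the lowest. Usp18, the protease that removes ISG15 and restrains signalling at IFNAR2, was at 0.679 to 1.45 FPKM (median 1.0) in CTR and 5.14 to 19.1 FPKM (median 8.42) in dKO, again with replicate 1 highest and replicate 4 lowest. Its means differed 10.4-fold and its log2 fold change was 2.37 ± 0.27.

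Uba7 and Herc6, which act in attaching ISG15, had ratios of means of 1.63 and 2.11. Uba7, the E1 activating enzyme, was at 0.650 to 2.23 FPKM in CTR and 1.91 to 3.98 FPKM in dKO, and its groups overlapped, with 3 dKO libraries above the highest CTR library (log2 fold change 0.47 ± 0.16). Without CTR replicate 1, CTR replicate 6 or dKO replicate 3 its log2 fold change was 0.45, 0.35 and 0.35 and it was no longer called, nor was it when genes with low values were kept in the fit (0.47, limma adjusted p = 0.0649). Herc6, the mouse ligase for ISG15, was below the filter at 0.354 to 0.832 FPKM in CTR and 0.804 to 2.1 FPKM in dKO, with 5 of the 6 dKO libraries above the CTR range. Trim25, a ubiquitin ligase that acts on the RNA sensor RIG-I, was at 10.9 to 15.4 and 17.7 to 28.4 FPKM, with no overlap and means that differed 1.78-fold.

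The IFIT proteins bind viral RNA that lacks the cap marks of cellular mRNA, and their 4 genes lie together on chromosome 19 between 34527932 and 34632174. Each of the 4 had all dKO libraries above all CTR libraries. Ifit3 was at 3.16 to 6.4 FPKM (median 4.87) in CTR and 25.6 to 124 FPKM (median 47.5) in dKO, and its log2 fold change of 3.16 ± 0.34 was the largest of the 40 tested genes. Ifit3b, at 0.488 to 1.15 and 4.05 to 18.6 FPKM, had means that differed 10.7-fold, but it shares 97.2% identity over 2030 bases with Ifit3, so how fragments were divided between the pair is uncertain. Ifit1, whose product binds the end of uncapped RNA, was at 1.12 to 3.72 FPKM (median 2.92) in CTR and 7.62 to 39.5 FPKM (median 14.8) in dKO, with a log2 fold change of 2.18 ± 0.37. Ifit2 had the smallest ratio of the 4, 2.38-fold, at 5.49 to 6.96 FPKM in CTR and 9.15 to 27.5 FPKM in dKO. The dKO replicate 3 was the highest library for each of them.

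OAS enzymes make short adenylate chains after binding double-stranded RNA, which switch on RNase L. Oas1a, Oas2 and Oas3 lie on chromosome 5 between 120868398 and 121046449, and the OAS-like genes Oasl1 and Oasl2 in a second cluster of that chromosome between 115034997 and 115075974. Levels in CTR were low, and Oas2 and Oas3 had the largest ratios of means of the 45 genes. Oas2 was at 0.106 to 0.217 FPKM (median 0.169) in the CTR libraries, 76 fragments over all 6, and at 1.7 to 11.5 FPKM (median 2.74) in the dKO libraries, with replicate 3 far above the others. Its means differed 24.7-fold and its log2 fold change was 1.92 ± 0.28. Oas3 was below the filter at 0.0648 to 0.132 FPKM in CTR, 68 fragments over all 6, and 0.686 to 7.59 FPKM in dKO, where its highest library held 11.1 times its lowest.

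Oas1a was at 0.816 to 2.72 FPKM (median 1.57) in CTR and 9.23 to 31.2 FPKM (median 10.9) in dKO, a log2 fold change of 2.56 ± 0.27. It shares 97.6% identity over 1861 bases with Oas1g, a gene outside the set at 0.953 to 5.91 FPKM in dKO, so its level is uncertain in the same way. Oasl2, which carries an OAS domain and ubiquitin-like repeats, was at 1.88 to 2.75 and 6.86 to 23.1 FPKM, and its means differed 5.25-fold. Oasl1, a brake on the translation of Irf7, was at 0.408 to 1.1 and 1.71 to 8.03 FPKM, with means that differed 5.33-fold. All 5 genes of this family had each dKO library above each CTR library.

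Among antiviral enzymes and GTPases, 8 genes stood from near silence to moderate levels. Mx1 and Mx2 are dynamin-like GTPases that block virus replication and lie on chromosome 16 between 97248235 and 97362100. Both were below the filter. Mx2 was at 0.127 to 0.554 FPKM in CTR and 0.956 to 4.24 FPKM in dKO with no overlap, whereas Mx1 was at 0.0787 to 0.251 and 0.153 to 3.64 FPKM and overlapped. Its highest value was in dKO replicate 3, and the next dKO library stood at 0.877 FPKM. The pair shares 95.3% identity over 843 bases, which makes the split between them uncertain.

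Rsad2 (viperin) makes a chain-terminating nucleotide and its neighbour on chromosome 12, Cmpk2, is a mitochondrial nucleotide kinase. Rsad2 was at 0.781 to 1.51 FPKM (median 1.22) in CTR and 1.39 to 13.8 FPKM (median 5.14) in dKO. The dKO replicate 6 at 1.39 FPKM lay inside the CTR range, and the other 5 lay above it (log2 fold change 1.43 ± 0.37). Cmpk2 was at 0.519 to 0.990 and 1.65 to 8.15 FPKM with no overlap, and its means differed 5.31-fold, close to the 5.19-fold of Rsad2.

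Eif2ak2 (PKR), the kinase that stops translation on double-stranded RNA, was at 6.68 to 8.51 FPKM in CTR and 9.92 to 20.2 FPKM in dKO, with means that differed 1.92-fold. Samd9l, an antiviral restriction factor, was at 5.44 to 8.7 and 15.7 to 28.3 FPKM, and its log2 fold change was 1.33 ± 0.15. Ddx60, a helicase, was below the filter at 0.304 to 0.543 and 0.646 to 2.71 FPKM. None of these 3 genes overlapped between the groups. Isg20, an exonuclease that degrades single-stranded RNA, was at 8.61 to 11.9 FPKM in CTR and 7.62 to 12.8 FPKM in dKO, with means of 10.3 ± 1.32 and 10.4 ± 1.79 FPKM (SD, n = 6 each). The ratio of its means was 1.01, and the difference was smaller than the spread between libraries in either group.

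The transcription factors of the response were higher to unlike degrees. Irf7, which switches on the later interferon genes, was at 1.77 to 3.41 FPKM (median 2.27) in CTR and 8.0 to 36.6 FPKM (median 10.9) in dKO, a log2 fold change of 2.13 ± 0.30. Stat2 and Irf9, which are both parts of ISGF3, stood at 6.15 to 9.98 and 5.48 to 7.99 FPKM in CTR and at 17 to 32.6 and 9.15 to 15.7 FPKM in dKO. Their means differed 2.58-fold and 1.74-fold, and neither gene overlapped between the groups. Irf1, a factor shared with the type II interferon response, overlapped at 4.85 to 7.89 and 7.22 to 15.7 FPKM, with 4 dKO libraries above the CTR range and replicate 5 highest.

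The small interferon-induced genes form no single family. Ifi27 and Ifi27l2a, encoding small mitochondrial membrane proteins, lie on opposite strands of chromosome 12 between 103392254 and 103409950 and share 163 bases of exon, which is 15.0% of the exons of Ifi27l2a. The strand setting of the counting is not given in the sources used here, so reads of that overlap cannot be told apart. Ifi27l2a was at 5.2 to 23.1 FPKM (median 12.1) in CTR and 57.8 to 166 FPKM (median 73.6) in dKO, a log2 fold change of 2.7 ± 0.30. Ifi27 was already at 42 to 51.7 FPKM in CTR and reached 55.4 to 90.7 FPKM in dKO, a 1.5-fold ratio of means, and its highest dKO library was replicate 6.

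Ifi44, a cytoplasmic protein of the response, was at 0.552 to 1.02 FPKM in CTR and 2.59 to 11.3 FPKM in dKO, a 7.06-fold ratio. Xaf1, which binds the apoptosis inhibitor XIAP, was at 1.58 to 2.39 and 3.34 to 9.41 FPKM, with no overlap and a 3.14-fold ratio. Ifi35, a partner of the Nmi protein, overlapped at 5.78 to 8.88 and 7.18 to 12.7 FPKM (log2 fold change 0.43 ± 0.13). It shares 620 bases of exon, 16.2% of its own, with the opposite-strand gene Vat1, whose mean was 128 FPKM in CTR and 236 FPKM in dKO.

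Genes for membrane and transport proteins stood at unlike levels, and include Ifitm1 and Ifitm2, which were not called. Ifitm3, which blocks virus entry at endosomes, had the highest level of the 45 genes, at 183 to 361 FPKM in CTR and 427 to 562 FPKM in dKO, with no overlap and a log2 fold change of 0.79 ± 0.14. Its neighbour Ifitm2 was at 14.9 to 36.4 and 16.3 to 42.4 FPKM, where 1 dKO library passed the CTR range. Its log2 fold change was 0.35 ± 0.23, and 0.53 without dKO replicate 1, where it was called. Ifitm1 was at 2.2 to 24 FPKM in CTR and 0.942 to 19.1 FPKM in dKO, and its log2 fold change of -0.21 ± 0.56 was smaller than its standard error and took the other sign without CTR replicate 4 (0.12) or dKO replicate 1 (0.17). Replicate 1, among the highest dKO libraries for Isg15 and Usp18, was the lowest for Ifitm1 and Ifitm2.

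Bst2 (tetherin), which holds budding virus at the cell surface, was at 43.4 to 54 FPKM (median 45.5) in CTR and 137 to 284 FPKM (median 190) in dKO. Its log2 fold change of 2.01 ± 0.14 combined a high level with a small error. Rtp4, a receptor transporter that also restricts RNA viruses, was at 2.12 to 3.71 and 11.3 to 37.6 FPKM, with means that differed 7.24-fold. A second annotated gene, Gm45338, shares 1129 bases of exon with it on the same strand but stood at a mean of 0.0860 FPKM in CTR and 0.0596 FPKM in dKO.

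The galectin genes were also high in CTR. Lgals3bp, a secreted glycoprotein that binds galectins, was at 41.2 to 69.3 FPKM in CTR and 150 to 242 FPKM in dKO, a log2 fold change of 1.65 ± 0.15. Lgals9 was at 29.9 to 45.8 and 82.8 to 127 FPKM, and its means differed 2.58-fold. Neither overlapped between the groups.

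PARP14, PARP9 and its partner DTX3L, whose genes lie on chromosome 16 between 35653231 and 35792980, and PARP12 attach or read ADP-ribose and ubiquitin. Parp14 was at 3.5 to 6.15 FPKM in CTR and 8.39 to 20.6 FPKM in dKO (log2 fold change 1.26 ± 0.20). Parp9, Dtx3l and Parp12 had ratios of means of 2.06, 1.82 and 1.72, from CTR medians of 6.81, 5.19 and 8.54 FPKM. All 4 had no overlap between the groups. Parp9 and Dtx3l share 458 bases of exon on opposite strands.

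Trim30a, a TRIM protein that restrains NF-kB signalling, was at 2.57 to 4.12 FPKM (median 3.23) in CTR and 12.4 to 35.7 FPKM (median 17.8) in dKO, a log2 fold change of 2.28 ± 0.21. It shares 96.6% identity over 414 bases with Trim30d and 97.3% over 1604 bases with a transcript of Gne, so its level is uncertain. Sp100, which marks PML nuclear bodies, was at 1.3 to 2.74 and 6.61 to 13.5 FPKM, and Phf11d, a PHD finger protein, at 2.01 to 4.09 and 5.75 to 16.5 FPKM. Their means differed 3.76-fold and 3.15-fold. Phf11d shares 97.1% identity over 732 bases with Phf11a.

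The 6 dKO libraries did not hold these genes at a common level. Their spread and order are a description, since the spread was named with the set. The SD of the log2 values among the dKO libraries had a median of 0.489 over the 40 tested genes, against 0.197 among the CTR libraries, whereas over all genes tested the medians were 0.169 and 0.165. Without dKO replicate 3 the median in dKO was 0.373. The SD was larger in dKO than in CTR for 37 of the 40 genes (92.5%) and for 50.9% of all genes tested. These SDs are of log2(FPKM + 1), where the added constant narrows the spread of low values. Oas2 in CTR, at 0.106 to 0.217 FPKM, had an SD of 0.045. The part of the scale in the contrast between the groups was not tested. The highest dKO library held a median of 2.87 times the lowest over the 45 genes, and more than 3 times in 20 of them.

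The genes followed a shared order of libraries. Replicate 3 was the highest dKO library for 37 of the 45 genes (82.2%), but for 15.9% of all genes tested. Replicates 1, 3 and 5 were together the 3 highest for 34 genes (75.6%), against 5.76% of all genes. At the other end, replicate 4 was the lowest for 21 of the 45 genes (22.9% of all genes tested) and replicate 2 for 11 (9.88% of all genes). Replicate 6 was the lowest for 8, close to its share of 17.0% over all genes. With replicate 3 set aside, replicate 1 was the highest for 27 genes and replicate 5 for 14, and replicate 1 was the highest of all 6 for 32.8% of all genes tested. Isg15, Usp18 and Mx2 were highest in replicate 1, Ifitm1, Ifitm2, Ifitm3 and Irf1 in replicate 5 and Ifi27 in replicate 6. The genes with another library among their 3 highest were Ifi27, Ifi27l2a, Irf9, Oas1a, Oas2, Ifitm1, Ifitm2, Ifitm3, Lgals9, Uba7 and Isg20. Among the CTR libraries, replicate 4 was the highest for 30 genes, against 25.8% of all genes tested.

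**Figure D4:**
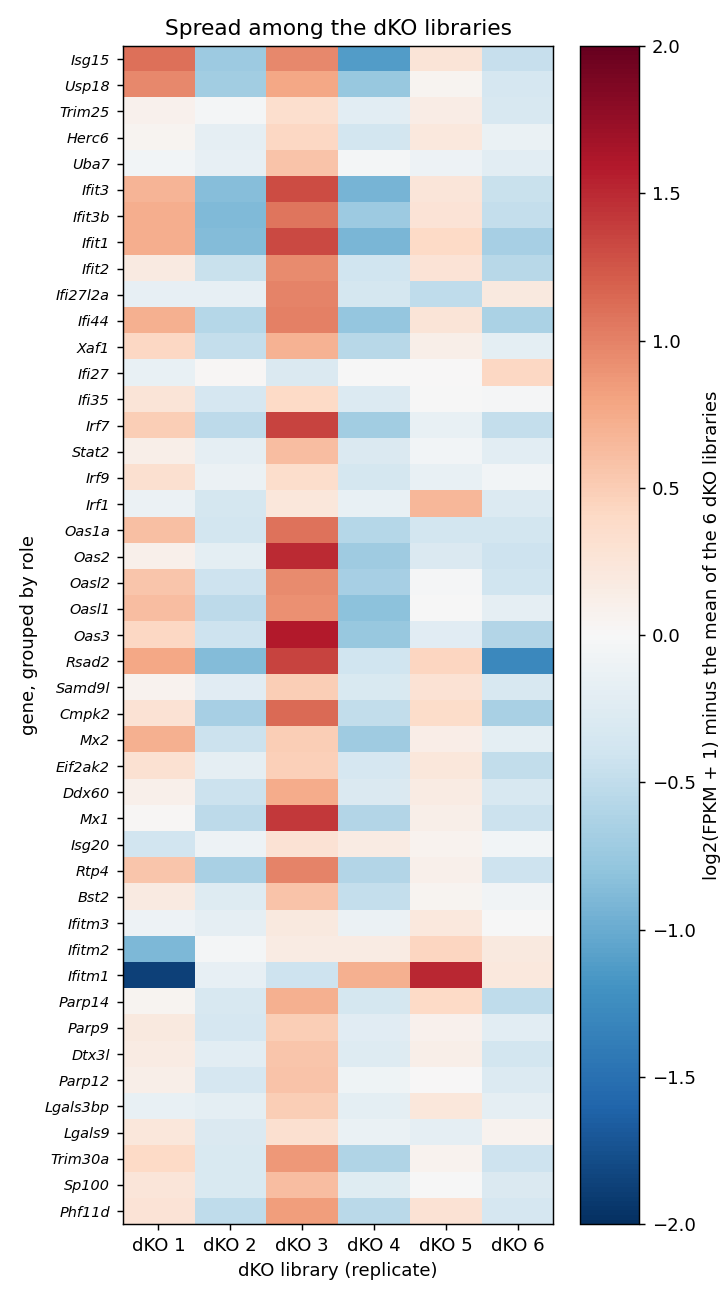
Log2(FPKM + 1) of each of the 45 genes in each dKO library, as the difference from the mean of the 6 dKO libraries, with red above and blue below that mean. The column of replicate 3 is red for most genes and the columns of replicates 2, 4 and 6 are mostly blue, while Ifitm1, Ifitm2 and Isg20 run otherwise.

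A mean of log2(FPKM + 1) over the 40 tested genes gave a single value for each library. It was 2.54 to 3.01 in the CTR libraries and 3.76 to 4.84 in the dKO libraries, where replicate 3 stood at 4.84, replicates 1 and 5 at 4.36 and 4.29, and replicates 6, 2 and 4 at 3.86, 3.77 and 3.76. Macrophage genes moved with the genotype: all 10 macrophage markers, among them Lyz2, C1qa and Adgre1, were higher in dKO with limma, against 20.4% of all genes tested. Their summed FPKM was 5299 in dKO replicate 3, and 9 of the 10 were highest in that library, against 15.9% of all genes tested. In the other dKO libraries the sum ran from 2388 in replicate 5 through 2606, 3021 and 3136 in replicates 2, 1 and 4 to 3477 in replicate 6. The order depended on the measure. As a mean of log2(FPKM + 1) over the 10 markers, replicate 2 was the lowest dKO library at 6.51, followed by replicate 5 at 6.56. Replicates 1, 4 and 6 stood at 6.59, 6.63 and 6.72, and replicate 3 at 7.37. Replicates 1, 3 and 5 were the 3 highest for 2 of the 10 macrophage markers, against 5.76% of all genes tested. The part of macrophage RNA in the difference was not tested.

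Endothelial markers were higher in dKO as well, for 9 of 10 genes, with summed FPKM of 169 to 251 in CTR and 308 to 425 in dKO, and replicate 3 had the lowest dKO sum. Plasmacytoid dendritic cells are known as a strong source of type I interferon, and their 6 markers summed to 9.38 to 17.4 FPKM in CTR and 2.61 to 5.74 FPKM in dKO. Siglech, a defining marker, was listed at 0 in all CTR libraries and reached at most 0.0571 FPKM in dKO, and the 1 gene of that list that passed the filter, Cox6a2, was its most abundant and was lower in dKO. The part of these cells in the difference was not tested. Markers of T and NK cells, B cells and erythroid cells were below the filter, with sums of at most 0.345, 0.374 and 1.08 FPKM in any library. Of the other lists, fibroblast markers had 1 higher and 3 lower of 5 tested, mesothelial markers 5 higher of 6, lymphatic endothelial markers 3 higher of 5, and monocyte, conventional dendritic, neutrophil, smooth muscle and lung epithelial markers 1 higher each of 3, 2, 1, 4 and 5 tested. Over all genes tested, 20.4% were higher and 32.6% lower, and nothing is read from the small counts.

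**Figure D5:**
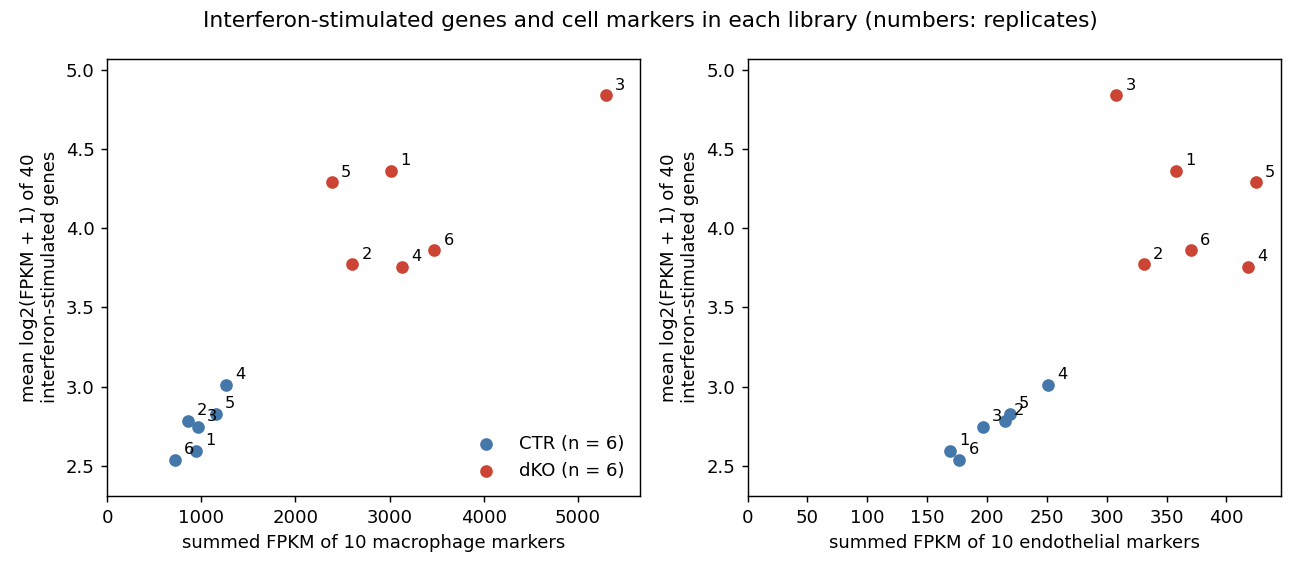
Mean log2(FPKM + 1) of the 40 tested interferon-stimulated genes in each library against the summed FPKM of 10 macrophage markers (left) and of 10 endothelial markers (right), with replicate numbers beside the points. The CTR libraries lie at the lower left of both panels. Among the dKO libraries, replicate 3 has the highest macrophage sum and the lowest endothelial sum, and replicate 5 has the lowest macrophage sum.

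Genes of interferon signalling outside the set were called in both directions. Of 51 listed genes, 33 were in the table and 26 were tested, of which 9 rose and 6 fell with p-values adjusted over all genes tested and 11 did not pass, where 20.4% of all genes tested were higher and 32.6% lower. The median log2 fold change was -0.04 over the list and -0.10 over all genes tested. The list was drawn up with earlier results of these data known. Transcripts of the interferons themselves were close to absent. Ifnb1 had 1 fragment over all CTR libraries and 5 over all dKO libraries, Ifnz had 0 and 6, and Ifna15 had 0 and 1, too few to compare. The other listed interferon genes were not among the genes of the deposited values, which hold no gene at 0 in every library.

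At the receptor, Ifnar1 was at 13.8 to 19.7 FPKM in CTR and 18.4 to 27.1 FPKM in dKO and was higher by 0.29 ± 0.10 on the log2 scale (limma adjusted p = 0.0228). Ifnar2 did not pass, at 18.1 to 22.3 and 15.1 to 29.7 FPKM (log2 fold change -0.05 ± 0.13, adjusted p = 0.732), and its sign turned without dKO replicate 1 (0.015) and with median-of-ratios scaling (0.035). Of the receptor's kinases, Jak1 and Tyk2 did not pass either, with log2 fold changes of -0.17 ± 0.08 (limma adjusted p = 0.0954) and 0.16 ± 0.09 (adjusted p = 0.156). Jak1 passed without CTR replicate 1 (adjusted p = 0.0458) and Tyk2 with median-of-ratios scaling (adjusted p = 0.0450), while Ifnar1 no longer passed when the libraries were rescaled to equal sums of FPKM (adjusted p = 0.0583). The type II receptor chains rose, with Ifngr1 at 0.53 ± 0.08 and Ifngr2 at 0.67 ± 0.08, as did Il10rb, a chain of the type III receptor, at 0.55 ± 0.12. Jak2, a kinase of the type II receptor, fell by 0.71 ± 0.11 on the log2 scale (limma adjusted p = 0.000173).

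Irf5 and Irf8, factors strongly expressed in myeloid cells, rose by 1.49 ± 0.16 and 0.53 ± 0.14 on the log2 scale, and Ptpn6 (SHP-1), a phosphatase of blood cells, by 1.25 ± 0.15. Each of these 3 was highest in dKO replicate 3, the library with the highest macrophage sum. Irf3, the factor that first switches on Ifnb1, fell by 0.30 ± 0.05 (limma adjusted p = 0.000205) and did not overlap, at 9.46 to 10.4 and 7.37 to 8.0 FPKM.

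Negative regulators in the list went in both directions. Ptpn6, above, and Ptpn1 were higher, Socs3, Ptpn2, Irf2bp1 and Pias2 were lower, and Socs1, Ptpn11, Pias1, Pias3, Pias4 and Irf2bp2 did not pass. Socs3, a feedback inhibitor of JAK kinases, was at 66.1 to 86.1 FPKM in CTR and 33.5 to 64.1 FPKM in dKO, with a log2 fold change of -0.57 ± 0.13 (limma adjusted p = 0.00265). Ptpn2, a phosphatase for JAK1, Irf2bp1, a corepressor of IRF2, and Pias2, a SUMO ligase, had log2 fold changes of -0.39 ± 0.10, -0.42 ± 0.08 and -0.30 ± 0.05, and all 3 passed the test. Ptpn1, a phosphatase for TYK2 and JAK2, went the other way at 0.24 ± 0.07 (adjusted p = 0.0167).

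Relatives of the 45 genes and further genes commonly listed as interferon-stimulated were read from a second list, drawn up with earlier results known. Of 63 listed genes, 59 were in the table and 40 were tested, of which 29 were higher, 1 was lower and 10 did not pass, against 20.4% higher and 32.6% lower over all genes tested. Their log2 fold changes had a median of 0.66. Some Schlafen genes, of a family known to restrict translation of viral RNA, were among the largest. Slfn5 was at 2.49 to 4.24 FPKM in CTR and 13.8 to 31.6 FPKM in dKO (log2 fold change 2.13 ± 0.17, limma adjusted p = 1.71e-06). Slfn1, Slfn2 and Slfn8 rose by 2.03 ± 0.37, 1.45 ± 0.14 and 1.28 ± 0.25, and Slfn1 reached 16.5 FPKM in dKO replicate 3 against at most 0.219 FPKM in CTR, so it passed the filter through its dKO libraries alone. Slfn9 overlapped between the groups and was not called (log2 fold change 0.36 ± 0.23, limma adjusted p = 0.201), and Slfn4 was below the filter.

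Trim30d and Phf11b, relatives of Trim30a and Phf11d, rose by 1.9 ± 0.18 and 1.74 ± 0.27. Ube2l6, the E2 enzyme that carries ISG15, was at 6.0 to 11.5 FPKM in CTR and 22.3 to 41.1 FPKM in dKO and rose by 1.68 ± 0.17 (limma adjusted p = 7.15e-06). Apol9a and Apol9b, a near-identical pair of apolipoprotein L genes, rose by 1.76 ± 0.26 and 1.74 ± 0.32, where Apol9a too passed the filter through dKO libraries alone, and Lgals3, a galectin abundant in macrophages, by 1.26 ± 0.17. Zc3hav1 (ZAP), which targets CpG-rich viral RNA, was the 1 gene lower, at -0.33 ± 0.13 (adjusted p = 0.0483), and this call was lost in 9 of the 12 fits that each left out a library (adjusted p = 0.0536 to 0.106). The order of libraries carried over to this list, with replicate 3 the highest dKO library for 28 of the 40 tested genes and replicates 1, 3 and 5 the 3 highest for 24.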

How the data were processed

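RNA of MLECs was sequenced by the authors, who trimmed the reads, aligned them to mm39 with STAR, kept uniquely aligned reads and aligned these again, while the submitters' processing notes list Bowtie2 2.2.3, HISAT2 2.1.0, TopHat2 and DESeq2. The authors deposited FPKM values. The counting program, annotation and strand setting are not given in the sources used here. The sample labels describe retinas and another library kit than the methods of the study, and the methods were followed.

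Of 28689 genes, 27706 were matched by Ensembl identifier to the GRCm39 annotation for symbols and positions, and 983 were not. Differences were fitted with limma 3.58.1 (eBayes with trend, R 4.3.3) on log2(FPKM + 1) over 12467 genes with FPKM of at least 1 in at least 6 libraries, with Benjamini-Hochberg adjustment over all of them and a threshold of 0.05. DESeq2, the study's tool, was not run. The exact permutation test has 924 splits and a smallest two-sided p of 0.00216. Whole library totals and gene lengths gave whole fragments for 100% of the genes within 0.01 fragment, which were used to give depth and in limma-voom, an alternative chosen after seeing the data. One fragment on a transcript of 2 kb was worth 0.0279 to 0.0322 FPKM. Near-identical copies were searched with BLAST 2.17.0 at 95% identity over at least 150 bases. The fit was tested on simulated data. Alternatives were other pseudocounts, filters and scalings, the exact permutation test, a replicate block and leaving out each library.

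The 45 genes, the gene lists and the marker lists were chosen with earlier results of these data known. The genes named are all 45, the genes of the pathway and related lists with the largest change among those called (up to 10 in each direction), interferons with any fragment, Ifnar1, Ifnar2, Jak1, Tyk2, Sp1, Sp3 and 3 strain-linked genes, with markers as lists. Some genes of these rules are not reported here. Lyz2, C1qa, Adgre1, Siglech, Oas1g, Slfn4, Slfn9, the uncalled negative regulators and overlapping genes were named after their values were seen.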

Additional observations from a re-analysis of the deposited data

Results flagged for a closer look

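Of 148 groups of 6 libraries examined, 19 held a library far from the rest, meaning that its gap to the nearest library, as a share of the range of the group, exceeded Dixon's critical value for 6 values. Chance would give about 7.4, or 1 in 20 groups, if the groups were independent and their values normally spread. The gaps were taken on unlogged FPKM and the genes shared an order of libraries, so nothing is read from the excess. In 10 of the 19 groups the far library was dKO replicate 3, the library with the highest macrophage marker sum, always on the high side. It held Ifi27l2a at 166 FPKM (next library 94.9), Oas2 at 11.5 (3.76), Oas3 at 7.59 (2.81), Mx1 at 3.64 (0.877) and Uba7 at 3.98 (2.26). Among related and pathway genes it held Irf5 at 10.3 FPKM (6.53), Ptpn6 at 17.6 (10.3), Phf11b at 16.3 (7.83), Slfn1 at 16.5 (4.15) and Slfn8 at 15.2 (7.64). The part of macrophage RNA in these values was not tested.

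The dKO replicate 5 was far above the rest for Ifnar2 at 29.7 FPKM (next 19.8), Ifngr2 at 39.97 (32) and Jak2 at 25.5 (20.3), and dKO replicate 1 for Apol9b at 13.5 (6.01). Among the CTR libraries, replicate 4 was high for Xaf1 at 2.39 FPKM (next 1.86) and Phf11b at 1.89 (1.24) and low for Jak2 at 24.4 (32.4), replicate 6 was low for Sp100 at 1.30 (2.37), and replicate 3 was high for Irf3 at 10.4 (9.77).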

How the results depend on the processing

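The count of 37 genes higher in dKO ran from 29 with a stricter filter of 5 FPKM, where fewer were tested, to 41 when rescaled to equal sums of FPKM or with limma-voom, and was 36 to 38 when libraries were left out in turn. The median log2 fold change of the set ran from 1.16 to 1.57, and the shorter element raised the promoters with a match from 15 to 18. Of all genes, 178 were higher with a log2 fold change over 1.5, but 320 and 343 with pseudocounts of 0.1 and 0.01, 289 rescaled to equal sums and 885 with limma-voom. Genes lower numbered 4065, and 2514 with the filter of 5 FPKM. Related genes higher numbered 29, and 16 with that filter. The 1 related gene lower, Zc3hav1, became 0 without a filter, with median-of-ratios scaling and with limma-voom, 2 rescaled to equal sums, and 0 to 3 when libraries were left out. Signs turned for Isg20 (-0.000630 and -0.000721 with pseudocounts of 0.1 and 0.01, -0.048 rescaled to equal sums, -0.059 to 0.077 when libraries were left out), Ifitm1 (-0.51 to 0.17 when libraries were left out, above 0 without CTR replicate 4 or dKO replicate 1) and Ifnar2 (0.035 with median-of-ratios scaling and -0.17 to 0.015 when libraries were left out, above 0 without dKO replicate 1). The cause of these shifts was not tested. In all, 15 of 832 values of the 40 genes changed call or sign, in 4 genes.

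Same-numbered libraries of the groups correlated at -0.11 to 0.57 in their deviations, below 0.1 in 3 of 6, so the numbers were not taken as pairs. With the replicate block the count stayed at 37, Jak1 passed (adjusted p = 0.0256) and pathway genes lower numbered 8 in place of 6. Precision is limited by depth for Oas2, Oas3, Mx1 and the interferon genes.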
